A study of Drosophila melanogaster with 12 samples.

Results

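The coldest and the warmest condition of a temperature experiment were compared in S2R+ cells, an adherent Drosophila melanogaster line of embryonic origin that resembles hemocytes, the blood cells of the fly. The comparison took 6 of the 12 arrays of the series by the temperature in their titles, 3 at 11 °C and 3 at 30 °C, and covered all gene probes on them. Cells were shifted one day after plating and stayed for 24 h at 11 °C or at 30 °C, and the total RNA of each of the 3 biological replicates per temperature was labelled with Cy3 and hybridised to its own single-colour Agilent array. The experiment asked how the transcriptome of these cells depends on temperature. Both groups were grown in Schneider's medium with fetal bovine serum, penicillin and streptomycin, and no other treatment was given. At 11 °C 4500000 cells were plated per dish, against 1500000 at 30 °C, which was meant to equalise the densities at harvest, so the number of plated cells and the temperature cannot be told apart. Arrays at 25 °C were left out of the comparison, so a difference between 11 and 30 °C does not show at which temperature a transcript changed, and arrays at 14 °C served only as side values.

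Flies are ectotherms, and the temperature of their cells follows that of the surroundings. Cold slows growth and division and makes membranes less fluid, while heat unfolds proteins and induces heat shock proteins, chaperones that bind unfolded chains, through the transcription factor Hsf. Cultured cells of the S2 lineage also carry the innate immune pathways of hemocytes, with antimicrobial peptides as targets of the Toll and Imd pathways.

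On each of the 6 arrays 43603 gene spots were measured, and 53.9% to 59.9% of these passed as well above background, the scanner software's test of a spot against its local background. Arrays had median processed signals of 40.0 to 60.1 intensity units, among dim probes, and no gene spot was saturated. Pearson's r across features, which are not independent replicates, was 0.986 to 0.989 between arrays at 11 °C, 0.992 to 0.996 between arrays at 30 °C and 0.919 to 0.934 between the temperatures. Of 12 hemocyte markers all 12 were tested, and serpent (srp) and u-shaped (ush), transcription factors of hemocyte development, were well above background on all 6 arrays. The filter on dim probes was also passed by 7 of 7 neuronal, 7 of 8 muscle and 6 of 6 germline markers. Of the fat body markers only 2 of 7 passed it. Passing this filter therefore did not by itself mark the cell type. All values below are log2 signals after scaling of the arrays on their median unless another scale is named, and changes are 11 °C minus 30 °C.

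The temperatures differed in a large share of the measured transcripts, and more of them were lower than higher at 11 °C. A feature, a gene or an unnamed transcript of the array design, was called where limma gave a change of at least 2-fold with a Benjamini-Hochberg adjusted p under 0.01. Of 14701 features 1745 (11.9%) were higher and 2442 (16.6%) lower at 11 °C, together 28.5%. The 9031 features with a gene in the RefSeq table held 1048 higher (11.6%) and 1611 lower (17.8%) genes, together 29.4%. Among the called genes the median change was 1.90 for those higher at 11 °C and -1.56 for those lower. Of the called genes with all probes well above background on all 6 arrays, 705 higher and 1136 lower, 237 were higher and 249 lower past 4-fold, and 18 were higher and 6 lower past 16-fold. The signals of the groups did not overlap in 9417 features (64.1%), so a lack of overlap is not by itself a mark of a called transcript. In these bulk samples fewer cells with a transcript and less of it per cell cannot be told apart.

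The split into both directions depended on how the arrays were scaled. After median scaling 41.7% of the calls were higher at 11 °C and the median change of all features was -0.16. With the 75th percentile as the common point, 2074 features (14.1%) were higher and 1915 (13%) lower, 52% of the calls were higher, and the median change was 0.005. This choice shifted every change by 0.17. Changes of gene lists were therefore read against the median of all features, and 3647 of the 4187 calls were made under both scalings. Genes described below that were called after median scaling only included Hsp67Bc, Hsp26, Cdc37, TyrRS-m, AsnRS, AttC, Su(var)2-10, kek1, p53, LanA, Appl, Pisd, Lsd-1, RagC-D, Lamtor4, Prx4, Mt2 and ScsbetaG.

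**Figure D1:**
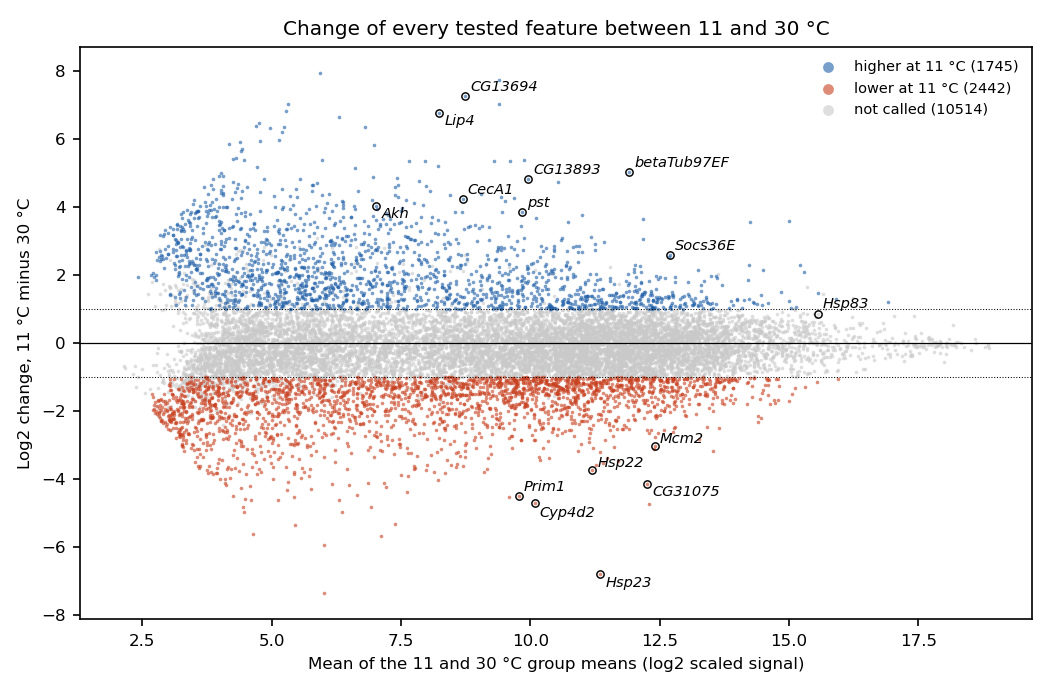
Log2 change between 11 and 30 °C (y axis, 11 °C minus 30 °C) against the mean of the group means (x axis, log2 scaled signal) for the 14701 tested features. Blue points were higher (1745), red points lower (2442) at 11 °C, grey points were not called, dotted lines mark a 2-fold change, and circled genes are described in the text, among them CG13694 (7.27), Lip4 (6.78) and Hsp23 (-6.80).

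The arrays lay on 3 slides, and slide 1 alone held both temperatures, with replicate 1 of each. Replicates 2 and 3 at 11 °C shared a second slide and those at 30 °C another, so within these replicates slide and temperature cannot be told apart. A fit on replicates 2 and 3 alone, added after the data were seen, called 3531 features, and 3488 of them (98.8%) had a change of the same sign on slide 1, 3088 (87.5%) with a change of 2-fold or more. Across these features the changes on slide 1 followed those of replicates 2 and 3 with a slope of 1.00. Of the calls of all 6 arrays 4185 of 4187 had the same direction on slide 1. The arrays of slide 1 were among those 6, so this count is not a separate check. With slide as a block over all 12 arrays 1555 features were higher and 2707 lower, and of the genes described below Hsp26, Herp, SerRS-m, snama, Mtk, aos, Damm, Dsk, Pxn, Col4a1, LanB1, LanA, Mp, Appl, Pcyt1, sws, CG10814, Pdp and vri were not called in that fit.

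**Figure D2:**
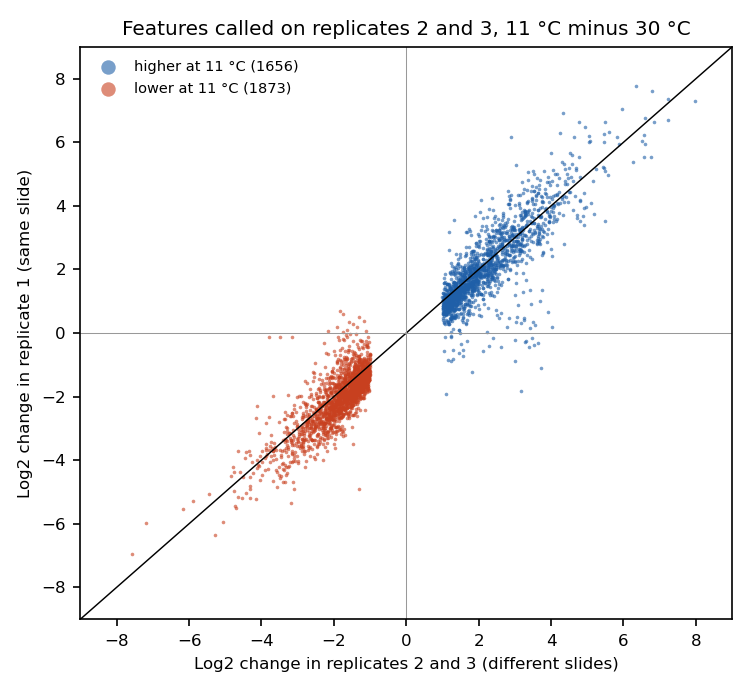
Log2 change between 11 and 30 °C in replicate 1, where both temperatures shared a slide (y axis), against the change in replicates 2 and 3, which lay on different slides (x axis), for features called on replicates 2 and 3 alone. Blue points were called higher and red points lower at 11 °C, the diagonal marks equal changes, and 3488 of the 3531 features lie on the same side of zero in both.

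Among RefSeq genes, the largest rises with signal on all 6 arrays were in a lipase, transporter and enzyme genes and a tubulin. CG13694 (array transcript CG13694-RA) had signals of 12.12, 12.30 and 12.70 at 11 °C, against 4.77, 5.42 and 5.12 at 30 °C, a change of 7.27 ± 0.22 (± the SE of the fit, n = 3 each) with an adjusted p of 4.07e-06. Lip4, which encodes a lipase (CG6113-RA), had 11.43, 11.56 and 11.88 at 11 °C, against 4.80, 4.77 and 4.97 at 30 °C, a change of 6.78 ± 0.16 (adjusted p = 3.27e-06). In both genes the groups lay more than 6 log2 units apart, while the arrays of a temperature differed by less than 1 unit. CG7888, which encodes an amino acid transporter of the SLC36 type, reached 10.47, 9.86 and 9.38 at 11 °C, against 4.15, 4.11 and 3.93 at 30 °C, a rise of 5.84 ± 0.27 (adjusted p = 8.33e-06). The beta tubulin isoform betaTub97EF had 14.50, 14.28 and 14.53 at 11 °C, against 9.73, 9.18 and 9.29 at 30 °C, and its rise of 5.04 ± 0.18 (adjusted p = 4.86e-06) came on a bright signal, far from background at either temperature. GstD7, a glutathione S-transferase, rose by 4.90, the mucin gene Muc30E by 4.86, the alkaline phosphatase gene Alp11 by 4.66 and Tat, which encodes tyrosine aminotransferase, by 4.36. The other rises among the 12 largest were those of CG6142 (5.36), CG13893 (4.83), CG7694 (4.63) and CG30054 (4.49), with adjusted p between 3.27e-06 and 1.43e-05 over the whole group of 12, CG6142 and GstD7 (1.36e-05) being the least certain. Genes with overlapping groups were left out of these 12 by the rule of selection. The pastrel gene (pst), from which the study took a cold-responsive enhancer and which was picked here after its values were seen, had 11.98, 11.69 and 11.68 at 11 °C, against 8.32, 7.67 and 7.74 at 30 °C, a rise of 3.87 ± 0.21 (adjusted p = 1.29e-05).

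Heat shock, DNA replication and detoxification genes were among the largest falls. Hsp23, a small heat shock protein gene (CG4463-RA), had signals of 8.89, 7.43 and 7.52 at 11 °C, against 14.88, 14.64 and 14.71 at 30 °C, a fall of -6.80 ± 0.37 (adjusted p = 1.36e-05). Its replicate 1 at 11 °C lay above the other 2, yet far below every array at 30 °C. Cyp4d2, a cytochrome P450, had 7.84, 7.64 and 7.69 at 11 °C, against 12.33, 12.31 and 12.68 at 30 °C, a fall of -4.72 ± 0.16 (adjusted p = 4.86e-06). Prim1, the small subunit of DNA primase, had 6.85, 7.57 and 8.14 at 11 °C, against 12.06, 11.97 and 12.04 at 30 °C, a fall of -4.50 ± 0.30 (adjusted p = 2.88e-05), with wider spread at 11 °C than at 30 °C. CG31075, which encodes an aldehyde dehydrogenase, was bright at both temperatures with 9.98, 9.89 and 10.68 at 11 °C, against 14.46, 14.21 and 14.34 at 30 °C, a fall of -4.15 ± 0.23 (adjusted p = 1.36e-05). The remaining 8 of the 12 largest falls were CG4570 (-4.52), the Skp-type ubiquitin ligase gene SkpB (-4.39), Dhit (-3.90), the glutathione S-transferase GstE11 (-3.90), neurexin Nrx-1 (-3.82), an adhesion protein of synapses, topi (-3.81), known for its role in the testis, the neprilysin-like peptidase gene Nepl4 (-3.80) and Hsp22 (-3.75). GstE11 had the widest spread of the 12, with 4.62, 5.91 and 6.14 at 11 °C, against 9.97, 8.85 and 9.54 at 30 °C, and an adjusted p of 0.000287.

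**Figure D3:**
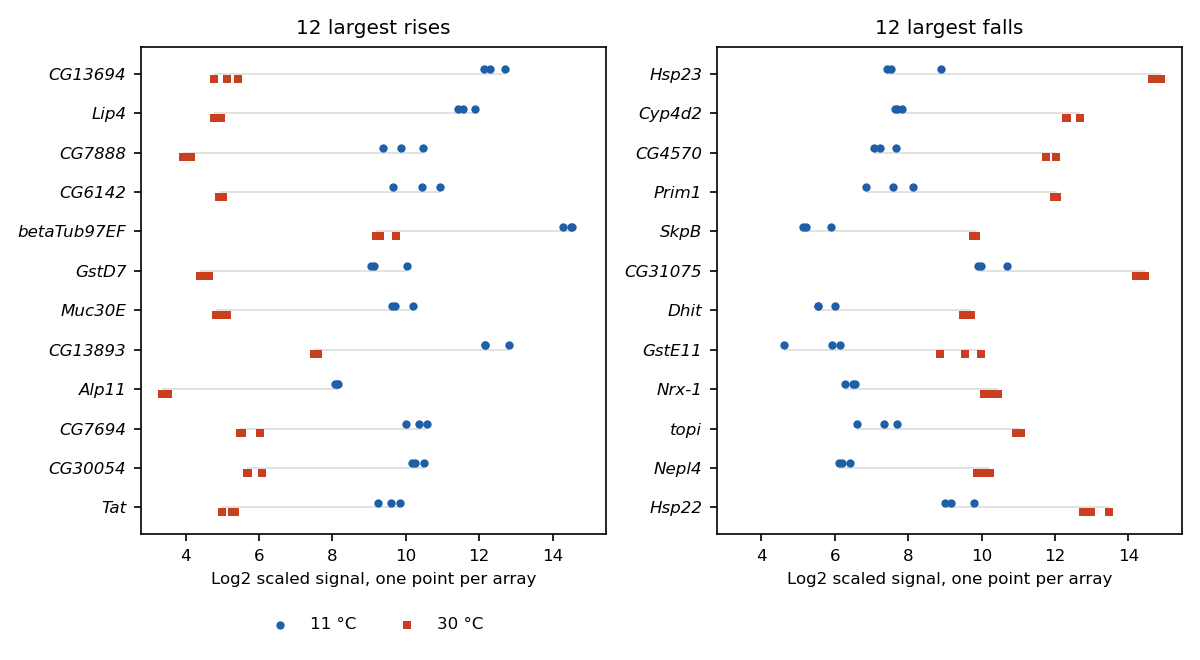
Log2 scaled signal (x axis) of the 12 genes with the largest rises (left) and the 12 with the largest falls (right) among called genes with signal on all 6 arrays, 1 point per array, blue circles for 11 °C and red squares for 30 °C. Genes were picked so that the 3 arrays of one temperature lie apart from the 3 of the other, as in betaTub97EF, between 14.28 and 14.53 at 11 °C and between 9.18 and 9.73 at 30 °C.

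In another set of genes signal rose above background at one temperature only, and folds are then given as lower bounds, the mean of the bright group over the dimmest single spot that still passed the background test (or the dim probe's own signal, if higher). That spot is the most lenient floor of an array. A stricter floor could give smaller bounds, so "at least" holds here and below against this floor only. There were 114 genes with all probes well above background on every array at 11 °C and none on any array at 30 °C, and 238 with the opposite pattern. The largest bounds at 11 °C were at least 39.0-fold for the carboxylesterase gene alpha-Est8, at least 34.7-fold for CG3999, which encodes glycine decarboxylase, at least 33.8-fold for CG15239, at least 26.9-fold for nompB, a gene of transport along cilia, and at least 22.6-fold for TotM, a stress peptide of the Turandot family. alpha-Est8 had signals of 8.31, 8.77 and 9.47 at 11 °C, against 1.61, 1.89 and 1.89 at 30 °C, where no array was well above background (adjusted p = 5.8e-06). TotM had 8.71, 7.87 and 7.81 at 11 °C, against 3.34, 3.75 and 3.3 at 30 °C (adjusted p = 1.65e-05). In both, every array at 11 °C lay more than 4 log2 units above every array at 30 °C. Among genes seen only at 30 °C the bounds were at least 17.9-fold for CG30099, at least 13.2-fold for tinman (tin), a homeobox gene of heart development, at least 11.2-fold for CG6790 and at least 10.4-fold for CG13912. tin had 3.32, 2.83 and 3.34 at 11 °C, against 7.86, 7.54 and 7.67 at 30 °C (adjusted p = 6.18e-06), with no overlap. The probe with the highest bound at 30 °C, at least 52.7-fold, was 1 of 4 probes of Gfat1, which makes the precursor of amino sugars, and since the others did not pass the filter on dim probes this value stands for that probe and not for the gene, and the gene was not called without the filter. A bound of at least 2-fold was reached by 109 of the 114 genes and by 74 of the 238. Another pattern, some probes above background but not all of them on any array, was that of tok and vn at 11 °C and of Mp, Ilp6, ScsbetaA, AttA, CecB, Drsl5 and PH4alphaSG1 at 30 °C, whose changes below rest partly on dim signals.

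Transcripts of heat-inducible chaperones were lower at 11 °C in most cases. Of the 14 tested genes of the heat-inducible list 10 were lower and 0 higher (16.6% and 11.9% of all features), and their median change was -1.93, against -0.16 for all features. The small heat shock protein genes led. Besides Hsp23 (-6.80), Hsp22 had 9.79, 9.0 and 9.17 at 11 °C, against 13.46, 12.98 and 12.76 at 30 °C, a fall of -3.75 ± 0.26 (adjusted p = 3.46e-05), and Hsp27, a small heat shock protein of the nucleus and cytoplasm, had 10.17, 9.41 and 9.64 at 11 °C, against 13.16, 12.92 and 12.73 at 30 °C, a fall of -3.20 ± 0.23 (adjusted p = 3.45e-05). Hsp67Ba (-2.10) and Hsp67Bc (-1.12) fell less, as did Hsp26, which had 11.82, 11.23 and 11.01 at 11 °C, against 12.87, 12.53 and 12.26 at 30 °C (-1.20 ± 0.25, adjusted p = 0.00548). For Hsp26 the mean at 14 °C was 10.57, lower than at 11 °C. Of the Hsp70 chaperones, Hsp70Ba had 8.83, 8.48 and 8.76 at 11 °C, against 12.44, 11.34 and 11.62 at 30 °C, a fall of -3.10 ± 0.28 (adjusted p = 0.000109), and Hsp70Bc (-2.54), Hsp70Bb (-2.40) and the related Hsp68 (-1.24) fell as well. Hsp70Aa missed the threshold with -1.75 (adjusted p = 0.0106), and replicate 1 was the highest of its group at both temperatures. The Hsp70 copies are near-identical, so their probes may not separate them. Hsp83, the Hsp90 chaperone, had 15.89, 16.21 and 15.82 at 11 °C, against 15.50, 15.07 and 14.83 at 30 °C, no overlap and a change of 0.84 (adjusted p = 0.0114), not called after median scaling and called higher with the 75th percentile as the common point (1.01). The Hsp40 gene DnaJ-1 (-0.17) and the co-chaperone gene stv (-0.40) had values near the median of all features.

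**Figure D4:**
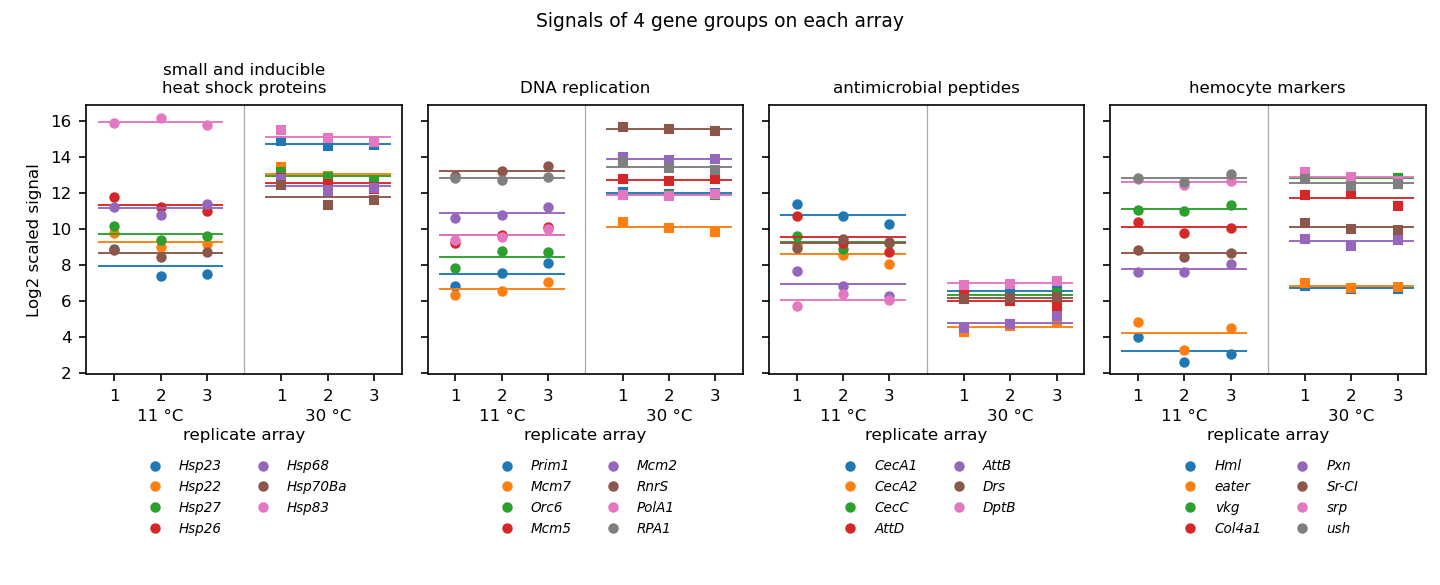
Log2 scaled signal (y axis) on each replicate array at 11 °C (circles, left of each panel) and 30 °C (squares, right) for genes of 4 groups, with horizontal lines at the group means. Hsp23, Prim1, CecA1 and Hml show separated groups, while RPA1, srp and ush lie close together at both temperatures and Hsp83 and DptB run against their groups.

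Few chaperones that cells use at all temperatures were called, beside 11.9% of all features higher and 16.6% lower. All 8 subunits of the cytosolic chaperonin, the folding chamber for actin and tubulin, had small positive changes between 0.47 and 0.76 (median 0.57), and 0 were called. Of 11 tested constitutive chaperones and co-chaperones 1 was lower, Cdc37, which brings kinases to Hsp90 (-1.07, adjusted p = 0.00216), a call that was lost in 3 of 6 fits with 1 array left out, those without replicate 3 at 11 °C or without replicate 1 or 2 at 30 °C. The list's median was -0.14. Of 20 genes of the endoplasmic reticulum and its unfolded protein response 1 was higher, Herp (1.02, adjusted p = 0.00774), a call lost in 5 of 6 such fits, and the median was 0.05.

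Replication genes were lower at 11 °C almost without exception. The lists named as the study's were compiled by the study from functional annotation and by hand, and it looked at their levels in these same samples, so their direction is not independent evidence. Of the 37 S phase genes 33 were lower and 0 higher, beside 16.6% and 11.9% of all features, with a median of -2.11, the lowest of the lists. The helicase that opens origins was low in all its parts, with Mcm2 at 10.61, 10.81 and 11.25 at 11 °C, against 14.03, 13.88 and 13.88 at 30 °C, a fall of -3.04 ± 0.19 (adjusted p = 2.05e-05), Mcm7 at a change of -3.46, Mcm5 at -3.08, Mcm3 at -2.96, dpa, the fly Mcm4, at -2.50, and Mcm6 at -2.15. The GINS subunits Sld5 (-3.06), Psf1 (-2.19) and Psf2 (-1.38), which travel with the helicase, fell too, and Psf3 (-0.29, adjusted p = 0.226) was not called. Of the origin recognition complex, Orc6 had 7.87, 8.79 and 8.73 at 11 °C, against 11.91, 11.90 and 11.88 at 30 °C, a fall of -3.44 ± 0.25 (adjusted p = 3.98e-05), ahead of Orc1 (-2.29), Orc4 (-2.16), Orc2 (-2.11) and Orc5 (-1.55). Among the enzymes, DNA polymerase alpha-primase fell in all its subunits, with PolA1 at -2.24, PolA2 at -2.65 and Prim2 at -2.30 besides Prim1. Ribonucleotide reductase, which makes deoxynucleotides, fell in both chains, RnrS (-2.32) and RnrL (-1.78). RPA1, the large subunit of the single-strand binding protein, was not called with 12.84, 12.72 and 12.93 at 11 °C, against 13.73, 13.42 and 13.30 at 30 °C (-0.65, adjusted p = 0.0113), though its groups did not overlap, and its partner RPA2 was (-1.42).

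Genes of mitosis followed with smaller changes. Their counts and those of the cell cycle and histone lists stand beside 16.6% of all features lower and 11.9% higher. Of the study's 35 M phase genes 22 were lower and 0 higher, with a median of -1.66. Kinetochore genes had the lowest values. Mis12 had 9.26, 9.30 and 9.81 at 11 °C, against 12.12, 11.99 and 11.98 at 30 °C, a fall of -2.57 ± 0.18 (adjusted p = 3.62e-05), and cid, the histone H3 variant of centromeres, had 8.65, 8.64 and 9.15 at 11 °C, against 11.49, 11.33 and 11.30 at 30 °C, a fall of -2.56 ± 0.18 (adjusted p = 3.32e-05). Nuf2 (-2.52), Spc25 (-2.26) and Ndc80 (-2.14), of the complex that grips microtubules, fell by similar amounts, as did the checkpoint genes mad2 (-2.34) and rod (-2.15). Of the main mitotic kinases and their cyclin none was called, as Cdk1 had -0.94 (adjusted p = 0.00332), polo -0.82 (0.00577) and CycB -0.32 (0.150). Of 31 cyclins and cell cycle regulators 12 were lower and 1 higher, with a median of -0.78. CycJ (-2.51), the checkpoint adaptor gene Claspin (-2.41), the retinoblastoma relative Rbf2 (-2.07), the anaphase activator fzy (-2.01), the phosphatase stg (-1.80), which sets entry into mitosis, and CycE (-1.57), which sets entry into S phase, were among the lower ones. The higher one was Cdk9 (1.22), which acts on RNA polymerase II and not in the cycle. Of 10 variant histones and histone mRNA factors 7 were lower and 0 higher, with a median of -1.13, among them Slbp, which binds the ends of histone mRNAs (-1.67), His3.3B (-1.27) and Lsm10 (-1.21), and 4 were lower with the 75th percentile as the common point.

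**Figure D5:**
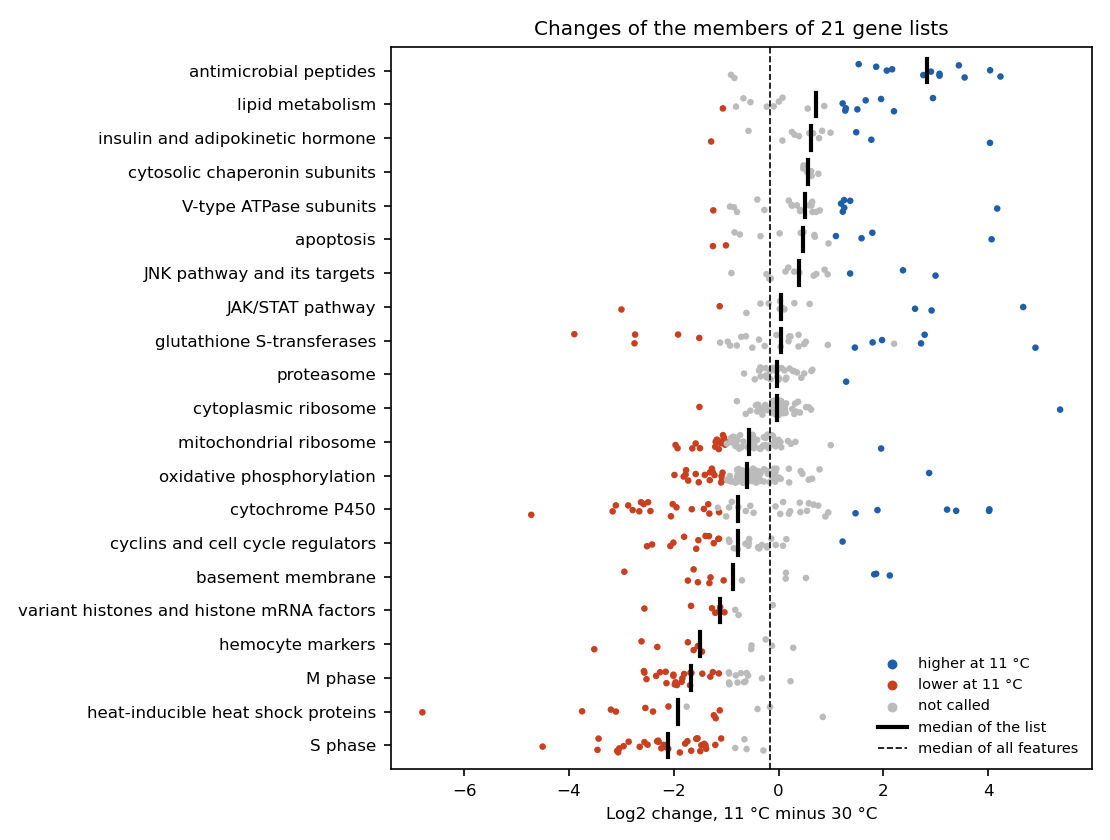
Log2 change between 11 and 30 °C (x axis) of each tested member of 21 gene lists (y axis, sorted by median), blue where called higher, red where called lower at 11 °C and grey where not called, with a black bar at the list's median and a dashed line at the median of all features (-0.16). Antimicrobial peptides lie farthest to the right (median 2.83), S phase genes farthest to the left (-2.11), and the cytoplasmic ribosome and proteasome lie near the dashed line apart from their few called members.

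Genes of oxidative phosphorylation were called lower at about the rate of all features, and so were those of the mitochondrial ribosome with the 75th percentile as the common point. Of the 92 features of the study's oxidative phosphorylation list 17 were lower and 1, an unnamed transcript, higher, beside 16.6% of all features lower, and the list's median was -0.60, with 13 lower under the other scaling (13% of all features). ND-AGGG, a subunit of respiratory complex I, had 11.49, 11.56 and 11.73 at 11 °C, against 13.64, 13.50 and 13.60 at 30 °C, a fall of -1.99 ± 0.14 (adjusted p = 3.11e-05), and the complex IV assembly factor Cox11 and the complex II subunit SdhD both had -1.77. The call of ND-AGGG was lost where its brightest of 3 probes was taken alone. Of 71 features of the mitochondrial ribosome 17 were lower and 1 higher, with a median of -0.56, and 9 were lower with the 75th percentile as the common point. mRpS11 (-1.97), mRpL36 (-1.93) and mRpL27 (-1.65) were the lowest named members, and mRpL48 ran against the list with 11.67, 10.82 and 11.13 at 11 °C, against 9.69, 9.0 and 9.06 at 30 °C, a rise of 1.96 ± 0.27 (adjusted p = 0.000779). Of 33 aminoacyl-tRNA synthetases 4 were lower and 1 higher (median -0.14), and the mitochondrial enzymes AsnRS-m (-1.41), MetRS-m (-1.27) and TyrRS-m (-1.16) were 3 of the 4. The other was the cytoplasmic AsnRS (-1.06), whose call was lost without replicate 1 at 30 °C, and the higher one was the mitochondrial SerRS-m (1.01).

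The machinery of cytoplasmic translation and protein turnover had few called members, beside 11.9% of all features higher and 16.6% lower. Of 82 features of the cytoplasmic ribosome 1 was higher and 1 lower, both unnamed transcripts, with a median of -0.03 that was -0.32 on slide 1 and 0.11 in replicates 2 and 3. Of 32 features of the proteasome 1 was higher, the core subunit gene Prosbeta3, with 13.15, 13.07 and 13.09 at 11 °C, against 12.04, 11.71 and 11.70 at 30 °C, a rise of 1.29 ± 0.15 (adjusted p = 0.000304), and the median was -0.02. Of 27 Myc and nucleolar ribosome biogenesis genes 24 had a positive change (median 0.46), but only Nmd3, the export adaptor of the large ribosomal subunit, was called higher (1.18), and Rrp1, whose product is a DNA repair enzyme, was called lower (-1.17). Autophagy had 1 of 19 genes called, Atg4a (-2.36, lower), with a median of -0.11. Of 14 SR splicing factors and their kinases 2 were lower, among them the sex determination gene tra (-1.31), with a median of -0.20. Of 17 cleavage and polyadenylation genes 1 was lower, the endonuclease Cpsf73 (-1.59), and 1 higher, snama (1.16), with a median of -0.33.

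Antimicrobial peptides were the list with the highest median. Of 14 tested peptides 12 were higher and 0 lower at 11 °C, beside 11.9% and 16.6% of all features. Their median was 2.83, and Def did not pass the filter on dim probes. Cecropins led. CecA1 had 11.41, 10.72 and 10.29 at 11 °C, against 6.32, 6.70 and 6.70 at 30 °C, a rise of 4.23 ± 0.29 (adjusted p = 2.93e-05), and CecA2 had 9.18, 8.58 and 8.07 at 11 °C, against 4.30, 4.6 and 4.83 at 30 °C, a rise of 4.03 ± 0.29 (adjusted p = 3.76e-05). Both were highest in replicate 1 at 11 °C, and no array at 11 °C came near one at 30 °C. The antifungal peptide Drs, a target of Toll, had 8.95, 9.47 and 9.27 at 11 °C, against 6.11, 6.16 and 6.22 at 30 °C, a rise of 3.07 ± 0.17 (adjusted p = 1.35e-05). AttD (3.55), CecC (2.91), Drsl5 (2.76), AttB (2.16) and AttA (1.53) rose too. CecB (3.44) was well above background on 1 array at 30 °C with 1 of its 2 probes. AttC, Dro and Mtk were not well above background at 30 °C and were higher at 11 °C by at least 2.11-fold, 1.10-fold and 2.66-fold, and the call of Mtk was lost without replicate 1 at 30 °C. The Imd targets DptA and DptB had the opposite sign. DptB had 5.76, 6.39 and 6.09 at 11 °C, against 6.90, 6.97 and 7.11 at 30 °C (-0.91, adjusted p = 0.00493), with no overlap but less than 2-fold, and DptA had -0.84 (0.0352). Cecropin and attacin copies are similar, so probes may read several of them. Many of these signals were dim, and with 50 units added to every signal the list's median was 0.97, below that of the collagen prolyl 4-hydroxylases (1.29).

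Of cytokine and stress signalling genes some feedback, target and ligand genes were higher at 11 °C, beside 11.9% of all features. Of 14 tested JAK/STAT genes 3 were higher and 2 lower (median 0.05). Socs36E, the feedback inhibitor of the pathway, was bright with 14.41, 14.00 and 13.57 at 11 °C, against 11.55, 11.40 and 11.22 at 30 °C, a rise of 2.60 ± 0.23 (adjusted p = 8.98e-05). The ligand gene upd3 had 7.48, 6.61 and 5.79 at 11 °C, against 4.55, 3.55 and 3.03 at 30 °C, a rise of 2.92 ± 0.50 (adjusted p = 0.00211), on signals that were well above background on 1 array at 30 °C, and upd1 and upd2 did not pass the filter on dim probes. TotM, given above, is a known target of the pathway. The receptor gene dome (0.30), the kinase gene hop (0.02) and the transcription factor gene Stat92E (-0.61, adjusted p = 0.00981) were not called. The 2 lower genes were et (-3.0), a negative regulator of the receptor, and Su(var)2-10 (-1.12), the fly PIAS. Of 15 genes of the JNK pathway and its targets 3 were higher and 0 lower (median 0.39). The transcription factor gene Ets21C had 11.86, 11.13 and 10.71 at 11 °C, against 8.22, 8.10 and 8.39 at 30 °C, a rise of 2.99 ± 0.28 (adjusted p = 0.000127), and the matrix metalloprotease Mmp1 rose by 2.37 and the ligand of the pathway, egr, by 1.36, a call lost with its brightest of 3 probes alone (0.59). The phosphatase puc, a standard readout of JNK, had 0.94 (adjusted p = 0.00133), short of 2-fold, and 1.10 with the 75th percentile as the common point.

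Of 20 genes of Pvr and EGFR signalling 5 were higher and 2 lower (median 0.33). These and the following counts stand beside 11.9% of all features higher and 16.6% lower. The ligands of the receptor Pvr, a relative of PDGF and VEGF receptors, rose in Pvf2 with 11.10, 10.72 and 10.55 at 11 °C, against 8.48, 7.70 and 7.73 at 30 °C, a rise of 2.82 ± 0.26 (adjusted p = 0.000104), and in Pvf3 (2.22). On the EGFR side the protease rho (1.82), which releases ligands, the ligand grk (1.24) and the secreted inhibitor aos (1.69) rose, and the ligand vn (-1.59) and kek1 (-1.07), an inhibitor in the membrane, fell. Of 15 apoptosis genes 4 were higher and 2 lower, with a median of 0.47. The death inducer rpr had 10.34, 9.31 and 9.70 at 11 °C, against 7.95, 8.05 and 7.99 at 30 °C, a rise of 1.79 ± 0.25 (adjusted p = 0.000843), and the caspase genes Decay (1.58) and Damm (1.09) rose. Buffy, a Bcl-2 relative, was at least 14.7-fold higher at 11 °C, with 8.03, 7.35 and 6.94 at 11 °C, against 3.23, 3.27 and 3.63 at 30 °C. The caspase inhibitor gene Diap2 (-1.25) and p53 (-1.01) fell. Of 12 genes of the adenosine pathway 4 were higher and 0 lower (median 0.25), namely the receptor AdoR (2.70), the transporter Ent3 (2.51) and the secreted deaminases Adgf-D (2.57) and Adgf-A (1.37). Of 15 genes known to respond to cold in flies 4 were higher and 4 lower (median 0.20). smp-30 rose by 1.95, while the neuropeptide gene Dsk had -2.40 and wus -1.47, and the other 5 are given under other lists.

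Hemocyte effector genes were lower at 11 °C, while the transcription factors of the lineage were not called. Of the 12 hemocyte markers 7 were lower and 0 higher, beside 16.6% and 11.9% of all features, with a median of -1.5. With the 75th percentile as the common point 7 were lower, beside 13% of all features. Hml, an adhesive clotting protein, had 4.03, 2.62 and 3.05 at 11 °C, against 6.85, 6.70 and 6.69 at 30 °C, a fall of -3.52 ± 0.33 (adjusted p = 0.000127), with at least 1 of its 3 probes well above background on 2 of 3 arrays at 11 °C. The phagocytosis receptor eater had 4.87, 3.27 and 4.53 at 11 °C, against 7.02, 6.73 and 6.77 at 30 °C, a fall of -2.62 ± 0.39 (adjusted p = 0.000982), and NimC1, of the same family, was at least 1.26-fold lower. The peroxidase Pxn (-1.54) and the scavenger receptor Sr-CI (-1.46) fell. In contrast srp had 12.80, 12.48 and 12.68 at 11 °C, against 13.17, 12.93 and 12.61 at 30 °C (-0.25, adjusted p = 0.288) and ush had 12.87, 12.62 and 13.06 at 11 °C, against 12.78, 12.41 and 12.52 at 30 °C (0.28, adjusted p = 0.212), both with overlapping groups, and crq and Pvr both had -0.52. With 50 units added to every signal the median of the markers was -0.86.

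Hemocytes make basement membranes, and of 14 such genes 7 were lower and 3 higher (median -0.87), beside 16.6% and 11.9% of all features. Both chains of collagen IV fell. vkg had 11.05, 11.00 and 11.33 at 11 °C, against 12.90, 12.86 and 12.82 at 30 °C, a fall of -1.73 ± 0.14 (adjusted p = 7.12e-05), and Col4a1 had 10.42, 9.81 and 10.08 at 11 °C, against 11.91, 11.97 and 11.30 at 30 °C, a fall of -1.62 ± 0.24 (adjusted p = 0.00100). Laminin chains LanB1 (-1.32) and LanA (-1.05), the collagen lysyl hydroxylase Plod (-1.30) and the protease tok (-2.94) fell as well. The higher genes were tiggrin (Tig), an integrin ligand, with 13.18, 12.65 and 12.48 at 11 °C, against 11.18, 10.74 and 10.92 at 30 °C, a rise of 1.82 ± 0.22 (adjusted p = 0.000379), the multiplexin Mp (2.12) and the perlecan trol (1.86), whose 6 probes ran from -1.61 to 3.44. Of 4 tested collagen prolyl 4-hydroxylases 2 were higher, PH4alphaSG1 with 9.47, 9.59 and 9.82 at 11 °C, against 2.71, 3.28 and 2.94 at 30 °C (6.65, adjusted p = 3.27e-06) and PH4alphaNE1 with 7.87, 7.66 and 7.72 at 11 °C, against 2.21, 3.41 and 4.01 at 30 °C (4.54, adjusted p = 0.000103). At 30 °C PH4alphaSG1 was seen with only 1 of its probes and PH4alphaNE1 on 2 of 3 arrays.

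Markers of other cell types showed no common direction, beside 11.9% of all features higher and 16.6% lower. Of 7 neuronal markers 2 were higher, fne (at least 5.81-fold) and futsch (at least 2.06-fold), and 2 lower, brp (-2.38) and Appl (-1.12). Of 7 muscle markers 1 was higher, Mlc2 (1.23), and 1 lower, htl (at least 1.50-fold), and twi, a gene of muscle precursors, did not pass the filter on dim probes. The 5 probes of Mlc2 ran from -0.33 to 2.25, and its call was lost without that filter. Of 6 germline markers osk (1.14) was higher and AGO3 (-1.63) lower. Among the 2 tested fat body markers Yp2 was higher (1.60).

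Rises in lipid genes were most frequent in the list of the study and in the small lists of phospholipid and lipase genes, beside 11.9% of all features higher. In the study's lipid metabolism list 8 of 18 features were higher and 1 lower, with a median of 0.71. pdgy, an acyl-CoA synthetase, had 10.16, 9.99 and 10.09 at 11 °C, against 7.27, 7.08 and 7.06 at 30 °C, a rise of 2.94 ± 0.14 (adjusted p = 8.61e-06), and Acsf3, of the same enzyme class, had 8.44, 8.33 and 8.44 at 11 °C, against 6.10, 6.25 and 6.27 at 30 °C, a rise of 2.20 ± 0.13 (adjusted p = 1.8e-05). Among 15 genes of fatty acid synthesis and desaturation (median 0.48) 2 were higher, close to the share of all features. Desat2, a desaturase, rose by 1.95 and FASN2, a fatty acid synthase, by 2.91, while the main desaturase Desat1 had -0.67 and FASN1 0.65, neither called. Of 12 phospholipid synthesis genes 3 were higher and 1 lower (median 0.18). Of the higher ones, Pcyt2 (array transcript CG18330-RA) had 7.18, 7.41 and 7.52 at 11 °C, against 5.05, 5.04 and 4.88 at 30 °C, a rise of 2.38 ± 0.15 (adjusted p = 2.06e-05). The gene eas had 12.79, 12.70 and 13.59 at 11 °C, against 11.45, 11.18 and 11.16 at 30 °C, a rise of 1.76 ± 0.25 (adjusted p = 0.000841). Pcyt1, of the phosphatidylcholine branch, rose by 1.15, and Pisd, which makes phosphatidylethanolamine in mitochondria, had -1.11, a call also lost without replicate 2 at 11 °C. Of 8 lipase and lipid droplet genes 3 were higher, Lip4, the triglyceride lipase bmm (1.44) and sws (1.02), and 1 lower, Lsd-1 (-1.01), a lipid droplet coat protein, with a median of 0.46. The calls of sws and Lsd-1 were lost without replicate 1 at 11 °C or replicate 3 at 30 °C.

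Of the lists of fatty acid degradation, that of the peroxisome had more falls than rises, as had all features (16.6% lower and 11.9% higher). With the 75th percentile as the common point 5 of its 25 features were lower, beside 13% of all features. Of 19 features of the study's beta oxidation list 2 were higher, CG10814 (2.56) and an unnamed transcript, and 1 lower, CG3902 (-1.80), with a median of 0.23, and of 25 peroxisomal features 1 was higher and 7 lower (median -0.43), among them Acat2 (-2.16) and the import factors Pex2 (-1.93) and Pex5 (-1.47). Of 24 subunits of the V-type ATPase, the proton pump of lysosomes, 6 were higher and 1 lower (median 0.50). Vha68-2, the catalytic subunit, had 14.16, 14.15 and 13.93 at 11 °C, against 12.78, 12.72 and 12.65 at 30 °C, a rise of 1.37 ± 0.14 (adjusted p = 0.000167), with VhaSFD (1.25), Vha13 (1.25), Vha44 (1.22) and Vha68-1 (1.19) close to it. The rarely seen paralogs Vha68-3, at least 5.17-fold higher, and Vha16-5, at least 1.09-fold lower, were not well above background at one of the temperatures.

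Hormone and growth signals had members called in both directions, beside 11.9% of all features higher and 16.6% lower. Of 14 genes of insulin and adipokinetic hormone 3 were higher and 1 lower (median 0.62). Akh, the fly's counterpart of glucagon, had 9.21, 8.98 and 8.92 at 11 °C, against 4.84, 5.13 and 5.04 at 30 °C, a rise of 4.03 ± 0.15 (adjusted p = 5.39e-06), and its receptor gene AkhR did not pass the filter on dim probes. The insulin-like peptide gene Ilp6 (1.77) and foxo (1.48), the transcription factor that insulin restrains, rose, Thor, the translation inhibitor and target of foxo, fell (-1.29), and InR, the insulin receptor, missed the 2-fold threshold with 0.99 (adjusted p = 0.00345). The study's insulin and TOR list had 7 of 39 features higher and 6 lower, with a median of -0.05. Of its higher members Pdk1 (1.44) is a kinase below the insulin receptor, and of its lower ones RagC-D (-1.01) and Lamtor4 (-1.03) bring TOR to lysosomes.

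Of the detoxification lists, the cytochrome P450 genes and alpha esterases had the larger shares of falls (16.6% of all features were lower and 11.9% higher). Of 82 cytochrome P450 genes on the array 45 passed the filter on dim probes, and of these 18 were lower and 6 higher (median -0.77). Besides Cyp4d2, Cyp6g2 had 4.09, 4.48 and 4.24 at 11 °C, against 7.37, 7.44 and 7.50 at 30 °C, a fall of -3.17 ± 0.15 (adjusted p = 8.91e-06), and Cyp309a1 fell by a similar amount (-3.10), both well above background on 1 array at 11 °C. Cyp28a5 was at least 2.20-fold lower. Cyp6a2, which many xenobiotics induce, had 11.16, 10.30 and 10.62 at 11 °C, against 7.51, 7.14 and 7.27 at 30 °C, a rise of 3.39 ± 0.24 (adjusted p = 3.32e-05), and Cyp4p3 was at least 5.91-fold and Cyp6a8 at least 5.64-fold higher. Of 31 glutathione S-transferases 6 were higher and 5 lower (median 0.04). GstE11, given above, was the lowest. In the delta class GstD7 was the highest, with 10.04, 9.15 and 9.04 at 11 °C, against 4.39, 4.63 and 4.51 at 30 °C, and GstD4 (2.79) was higher, while GstD9 (-2.74) and GstD10 (-1.92) were lower, and these neighbours are similar enough for probes to read several. GstE2 (2.72) rose and GstZ1 (-2.75), which acts in tyrosine breakdown, fell. Of 7 alpha esterases 2 were higher and 4 lower (median -1.80). alpha-Est8 and alpha-Est9 (2.07) rose, and alpha-Est7 had 10.92, 10.71 and 11.07 at 11 °C, against 13.30, 13.05 and 13.16 at 30 °C, a fall of -2.27 ± 0.15 (adjusted p = 2.93e-05), next to alpha-Est4 (-2.82), alpha-Est3 (-1.80) and alpha-Est5, at least 2.45-fold lower. Of 21 genes on the antioxidant list 2 were higher and 5 lower (median -0.57). Gclc, which limits glutathione synthesis, had 10.86, 10.52 and 10.33 at 11 °C, against 8.67, 8.43 and 8.54 at 30 °C, a rise of 2.03 ± 0.18 (adjusted p = 8.41e-05). Keap1, the inhibitor of the oxidative stress response, had 12.07, 11.72 and 11.77 at 11 °C, against 10.04, 9.87 and 9.71 at 30 °C, a rise of 1.98 ± 0.16 (adjusted p = 6.36e-05). In contrast maf-S, a partner of the transcription factor that Keap1 inhibits, fell (-1.52), as did the peroxiredoxin genes Prx6a (-1.51) and Prx4 (-1.08). The superoxide dismutase Sod3 was at least 1.67-fold lower. Mt2 (-1.13), whose product is a methyltransferase, was also among the 5 lower genes of the list.

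In central metabolism few features of glycolysis and the tricarboxylic acid cycle were called, and those of amino acid breakdown not far from the 28.5% of all features. In the study's list of amino acid catabolism 2 of 23 features were higher and 6 lower (median -0.49). Tat, the first enzyme of tyrosine breakdown, had 9.23, 9.61 and 9.85 at 11 °C, against 5.35, 5.26 and 4.99 at 30 °C, whereas GstZ1, a later enzyme of the same route, had 9.28, 9.54 and 9.58 at 11 °C, against 12.26, 12.15 and 12.24 at 30 °C. CG3999, given above, was higher, and CG31075 lower. Of 17 features of glycolysis Gpdh1 (1.27) and the phosphatase gene Pdp (1.03) were higher and Pfk, the committing enzyme of the pathway, was lower, with 8.80, 8.53 and 8.58 at 11 °C, against 10.42, 10.23 and 10.24 at 30 °C, a fall of -1.66 ± 0.14 (adjusted p = 8.48e-05), and the median was -0.22. The call of Pdp was lost without replicate 3 at 11 °C or replicate 2 at 30 °C. Of 20 features of the tricarboxylic acid cycle 1 was higher, ScsbetaA (1.75), and 2 lower, SdhD and ScsbetaG (-1.12), with a median of -0.33. ScsbetaA and ScsbetaG encode alternative beta subunits of succinyl-CoA synthetase. The call of ScsbetaG was lost in 5 of 6 fits with 1 array left out, and that of ScsbetaA with its brightest of 2 probes alone (0.74). Of 6 tested SLC36-type transporters CG7888 was higher and CG16700 (-1.93) and CG8785 (at least 1.45-fold) were lower (median -0.24).

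Of 9 tested tubulins, betaTub97EF and the maternal alphaTub67C were higher and gammaTub37C was lower (median -0.45). alphaTub67C was not well above background at 30 °C and had 7.04, 6.57 and 6.70 at 11 °C, against 2.99, 3.86 and 3.72 at 30 °C, at least 8.58-fold higher, and gammaTub37C had -1.30. Of 10 tested temperature-sensing and circadian genes 4 were higher and 1 lower (median 0.46), beside 11.9% and 16.6% of all features. The clock gene per had 6.77, 6.90 and 6.40 at 11 °C, against 4.31, 4.46 and 4.59 at 30 °C, a rise of 2.24 ± 0.18 (adjusted p = 5.62e-05), its activator Clk was at least 1.09-fold higher, and the clock repressors cwo (1.27) and vri (1.07) rose, whereas norpA, a phospholipase C with a role in temperature input to the clock, fell (-1.42). tim and cry did not pass the filter on dim probes.

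At 14 °C the mean of most called genes lay between those at 11 and 30 °C. By the median share of the change it was nearer to that at 11 °C. Replicates 2 and 3 at 14 °C shared the slide of those at 11 °C, so in these replicates slide and nearness to 11 °C cannot be told apart. Of 2659 called genes 2093 (78.7%) had a mean at 14 °C between those at 11 and 30 °C, 826 of them higher and 1267 lower at 11 °C. At 14 °C the median share already reached of the change between 30 and 11 °C was 78.9% in the higher and 77.0% in the lower genes. For Prim1 the mean was 9.55 at 14 °C, between 7.52 at 11 °C and 12.02 at 30 °C, and for betaTub97EF it was 14.76, beyond 14.44 at 11 °C. In 547 genes the mean at 14 °C lay beyond that at 11 °C, in 15 of them by more than 2-fold, among them the chloride channel gene ClC-a, with means of 7.25 at 11 °C, 9.33 at 14 °C and 5.61 at 30 °C, and sage, with 8.29, 6.96 and 10.37. These 2 were picked after their values were seen. In 19 genes the mean at 14 °C lay beyond that at 30 °C. These counts were not tested.

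Probes of one gene did not always move together. Of 2932 genes with several probes 26 had probes called in both directions, and the mean over the probes then hides the difference. Of these 26 genes trol, dnc and Nrg were called on that mean. Of the probes of Pabp2, a poly(A) binding protein of the nucleus, the one designed on transcript CG2163-RA had 11.83, 12.03 and 12.36 at 11 °C, against 9.79, 9.49 and 9.31 at 30 °C, and rose by 2.54 (adjusted p = 4.62e-05 in a limma fit on probes), whereas one designed on CG2163-RB had 7.25, 7.30 and 7.55 at 11 °C, against 8.52, 8.43 and 8.39 at 30 °C, and fell by 1.08 (adjusted p = 0.000593). UQCR-11, a subunit of respiratory complex III, had one probe that rose by 2.67 and another of the same transcript that fell by 1.11. For trol, Msp300 and dnc, large genes with several transcripts, probes were also called both ways, so single values of these genes stand for the probes averaged.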

How the data were processed

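RNA of S2R+ cells kept at 11 or 30 °C was measured on single-colour Agilent arrays, 3 biological replicates per temperature. The authors scanned the arrays and deposited Feature Extraction files, from which the background-subtracted processed signal was taken as intensity, and a value table that holds log2 of the same signal minus a constant per array. This table, deposited on the log2 scale, served as an alternative.

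Spots flagged as outliers were dropped, spots averaged to probes, and log2 values scaled on each array's median. A probe was kept where 50% or more of its spots passed the background test on 2 of 3 arrays of a temperature and 5 of 6 arrays had a value. Of 32162 gene probes 19544 (60.8%) were matched to 13081 genes by locus tag, transcript identifier or accession in the RefSeq table of the Release 6 plus ISO1 MT assembly, and probes of a gene were averaged, so genes with several transcripts or near-identical copies may mix them. The array's own genome build was not given in the sources used here. Lists were matched by current symbol.

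The contrast 11 °C minus 30 °C was fitted with limma 3.58.1 (R 4.3.3) on the 6 arrays, with 4 residual degrees of freedom, tested on simulated data, and called at 2-fold and an adjusted p under 0.01. Figures and tables were made with Python 3.11.15. Errors are standard errors of the fit. The number of arrays limits the precision. Named genes were the 12 largest called rises and falls with signal on all 6 arrays and no overlap of the groups, the 5 largest bounds per direction and up to 4 called members per list. Defining members, members whose probes disagreed and the remaining called members of short lists were added as values. The members and lists were chosen with earlier results of these data known. Alternatives covered scaling, background offset, dim-probe filters, probe choice, slide, replicate number and single arrays. Columns of the 25 °C arrays entered only alternative fits over all 12 arrays. Some genes are not reported here.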

Additional observations from a re-analysis of the deposited data

How the results depend on the processing

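No feature called in the 6-array fit was called in the opposite direction under the alternatives fitted on genes. Changes of sign that missed the thresholds were not counted over all features. In the fit on single probes trol, dnc and Nrg had a probe called against the gene. Against 1745 higher and 2442 lower features, the counts were 870 and 1143 with slide as a block, which leaves 2 residual degrees of freedom, 773 and 734 where the test was made against a 2-fold change, and 1090 and 1512 with 50 units added to every signal, an alternative chosen after seeing the data. Normexp background correction on the median signals, with 50 units added, gave 117 and 9. Its fitted background lay below the lowest 1% of gene spots, at -411.6 to -326.5 units at 30 °C and -265.8 to -4.841 at 11 °C. It was therefore set aside, and whether this misfit made the low counts was not tested. Scaling on the 75th percentile gave 2074 and 1915. Leaving out 1 array gave 1554 to 1790 higher and 2081 to 2663 lower features. With the replicate number as a block the counts were 1775 and 2513, and same-numbered samples deviated together with correlations of 0.302, 0.10 and 0.0964, so the numbers were not taken as pairs. Of 45 lists other than markers 26 had a median above that of all features, 17 without the filter on dim probes and 24 to 26 with 1 array left out. Genes seen only at 11 °C numbered 114, 313 by the alternative definition of detection and 115 to 205 with 1 array left out, the highest without replicate 2 at 11 °C. Those seen only at 30 °C numbered 238, 549 by that definition and 244 to 352 with 1 array left out. Of 173 called genes under the rule for named genes 94 were called under every alternative in which they were tested, other than normexp and the fit on single probes. The filter that kept only probes with a signal over 100 left 153 of the 173 to be tested. Of the 173 genes the slide block lost 47, that over all 12 arrays 11, the test against 2-fold 66 and the offset 24. Near background the size of a change depends on the offset, and 3 arrays per temperature limit the precision.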
